A study of Mus musculus with 12 samples.

Results

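The comparison set cells on collagen that carried aortic carboxypeptidase-like protein (ACLP) against cells on collagen alone. It used 8 of the 12 libraries of the study, 4 labelled col1 (the control) and 4 labelled col1-ACLP, and every gene that passed a filter on counts, 15710 of the 56748 in the table. The cells were C3H10T1/2, written CH310T1/2 in the sample labels, an established mouse line of mesenchymal progenitors described there as wild type. All 8 cultures were serum starved (0.5% FBS), held in suspension for 1 h and then plated for 18 h. Per the study's methods, plating was in low serum as well (0.5% FBS). The gels had a stiffness of 12 kPa and carried type I collagen, applied at 0.05 mg/mL. The col1-ACLP gels also received 30 nM recombinant mouse ACLP, a myc-His tagged protein made in human AD293 cells. Libraries with the ALK5 kinase inhibitor SB431542 were left out. The study describes 4 biological replicates per group of 1 cell line, so the spread below is that between cultures of this line at a single stiffness and a single time. The comparison asks which transcripts differ when ACLP is presented to the cells within the collagen.

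ACLP is a secreted protein of connective tissue, encoded by Aebp1, that binds fibrillar collagen through a discoidin domain and promotes collagen assembly. Cells grip collagen through integrins, which recruit talin, vinculin and actinin to focal adhesions and pull on the matrix with actin and myosin. Mesenchymal progenitors on collagen can turn towards fat, cartilage, bone or matrix-secreting fibroblasts, and activated fibroblasts are known for fibrillar collagen, lysyl oxidase and smooth muscle actin. RNA of whole cultures was measured, so that fewer cells of a type and less RNA per cell cannot be told apart.

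The 8 libraries held 29246154 to 42543707 counts, and levels are given as CPM, counts scaled to a common library size with TMM factors from 0.966 to 1.02. All 10 mesenchymal markers were tested, with summed levels of 34655 to 35784 CPM without ACLP and 43690 to 50941 CPM with it. The higher sum came from Col1a1 and Col1a2, the 2 markers that rose, while 5 fell (Pdgfra, S100a4, Twist1, Prrx1 and Pdgfrb). Of the markers of other cells, Ptprc (myeloid), Epcam (epithelial), Kdr (endothelial) and Adipoq (adipose) had 0 to 6 counts in each library. Others of the same lists were higher, with 150 to 432 counts for Cd68, 181 to 314 for Tek, 72 to 487 for Erg, 62 to 115 for Cdh1 and 9 to 82 for Fabp4. The 6 neural and glial markers summed to 10.8 to 14.6 CPM without ACLP and 15.5 to 19.9 CPM with it. Of the 3 tested, 1 rose and 0 fell. The library col1 replicate 2 stood apart on the leading principal component (-71.6, against -7.57 to -7.26 for the other col1 libraries and 20.7 to 25.8 for col1-ACLP). It had counts on 18556 genes, where the others had 20712 to 21285, and 810 tested genes (5.16%) lay more than 1 log2 unit outside its group, against 222 to 311 for each other library. Counts of mitochondrially encoded genes took 2.39% to 2.98% of the col1 libraries and 2.00% to 2.21% of the col1-ACLP libraries, without overlap. The part of these differences in the results was not tested, apart from refits without a library or without the mitochondrial genome, given in a closing section. The count of a list with a library left out is given where it changed by more than 1.5 times.

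The test was the quasi-likelihood test of edgeR, and p-values were adjusted by Benjamini and Hochberg's method over all 15710 genes. A gene passed when its adjusted p was under 0.05, and it was called when its log2 fold change was also beyond 0.58 in size, the rule of the study's methods. With ACLP in the collagen, 1597 genes (10.2%) passed as higher and 1484 (9.45%) as lower, and 418 (2.66%) and 405 (2.58%) of them were called. Scaled by library sizes alone, 1186 passed as higher and 1986 as lower (37.4% of passing genes higher, against 51.8% with TMM). For 758 of the 823 called genes the libraries of both groups did not overlap, a state that held for 11.3% (higher) and 10.8% (lower) of all tested genes. Among named genes near the threshold, Masp1, Runx2, Cd68, Fabp4, Bcan, Ddr1, Gdnf, Cdkn1a, Cpe, Junb, Ppia, Dusp6, Insig1, Pdgfrb and Rps27a did not pass under at least 3 of the 16 alternatives. A test against the fold threshold itself is not among the 16. Several named genes overlap a gene that has at least 10% as many counts, taken over the whole gene span given in the table with introns. Where exons overlap, their counts carry the limit given below for Scx. The spans of Col4a1 and Col4a2 share only their ends on chromosome 8 (Col4a2 from 11362805, Col4a1 to 11362826), so that limit hardly applies to them. More counts than their own lie on the overlapping gene for Bop1 (with Mroh1), Col4a2 (with Col4a1), Ddit3 (with Mars1), Fdft1 (with Ctsb), Fgfr2 (with Oat and further genes), Irf9 (with Rnf31), Podn (with Scp2) and Psph (with Cct6a). Fewer lie there for Aldh1l2 (with Nopchap1), Car9 (with Gm12454), Ccnd1 (with LTO1), Cebpb (with Peds1), Col18a1 (with Slc19a1), Col4a1 (with Col4a2), Ddah1 (with Rpl36a-ps2), Fhl2 (with Gm8210), Junb (with Prdx2), Lamb3 (with Hsd11b1), Plin4 (with Hdgfl2), Rhoa (with Tcta), Runx2 (with Supt3) and Tgfb3 (with Ttll5). The median change of all tested genes was -0.01 on the log2 scale, and the median size of a called change was 0.86.

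**Figure D1:**
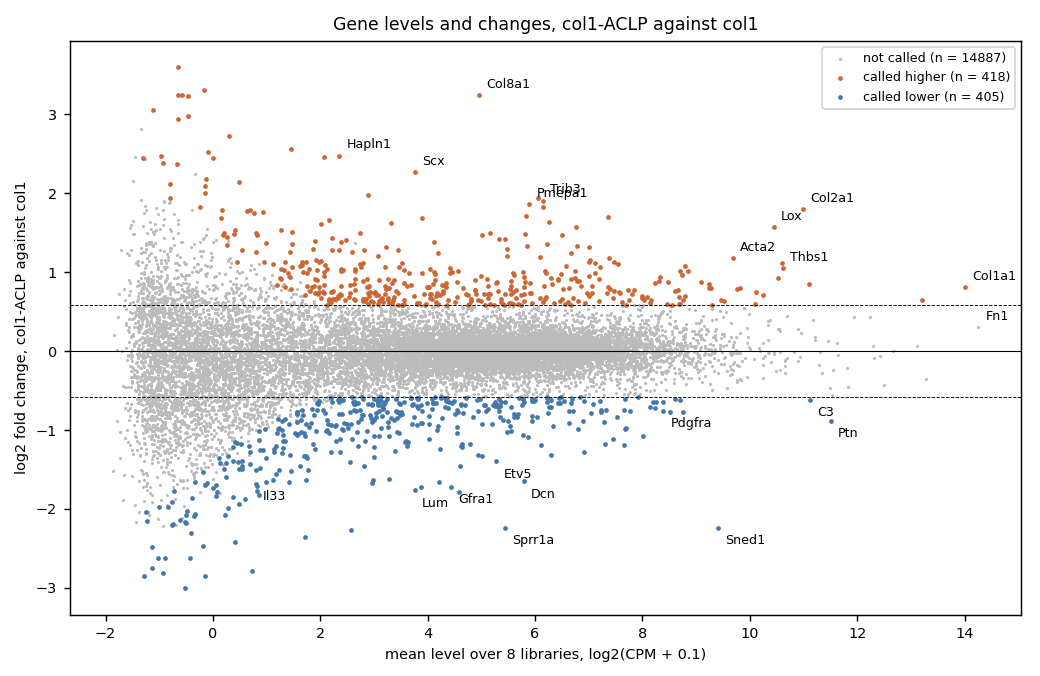
Each point is a tested gene, with its mean level over the 8 libraries on the x axis as log2(CPM + 0.1) and its log2 fold change, col1-ACLP against col1, on the y axis. Orange points are the 418 genes called higher, blue points the 405 called lower and grey points the rest, dashed lines mark 0.58 in either direction, and Col8a1 at 3.24 and Sned1 at -2.24 lie far outside genes of like level.

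The largest rise among genes with a mean above 5 CPM in either group was that of Col8a1 (ENSMUSG00000068196, chr16:57444621-57575100 in GRCm39), the alpha 1 chain of the short-chain network collagen VIII of vessel walls and wounds. Col8a1 measured 6.98, 6.62, 5.497 and 4.601 CPM in the col1 libraries against 51.5, 55.9, 54.7 and 62.3 with ACLP, and every ACLP library stood far above every control. Its log2 fold change was 3.24 ± 0.112 SE (edgeR adjusted p = 9.26e-15). Hapln1, which links hyaluronan to large proteoglycans, measured 1.59, 1.67, 1.76 and 1.09 CPM in the col1 libraries against 7.14, 8.67, 8.24 and 9.95 with ACLP (log2 fold change 2.48 ± 0.207 SE, edgeR adjusted p = 6.79e-09). Scx, a transcription factor of tendon progenitors, had 5.46, 4.24, 4.04 and 4.86 CPM in the col1 libraries against 20.6, 21.4, 19.9 and 27.98 with ACLP (log2 fold change 2.27 ± 0.139 SE, edgeR adjusted p = 5.39e-11). Scx lies within the span of Bop1, a ribosome biogenesis gene on the other strand that also rose (0.44). Where exons of such a pair overlap, their reads cannot be told apart, because the strand setting of the counting is not given. Exon positions were not examined. Cth, the enzyme that makes cysteine from cystathionine, had 1.698, 1.09, 1.52 and 0.72 CPM in the col1 libraries against 7.29, 4.72, 5.84 and 9.71 with ACLP (log2 fold change 2.46 ± 0.278 SE, edgeR adjusted p = 7.15e-07), low but without overlap. Erg, an ETS factor of endothelium and cartilage, was at 2.93 ± 0.662 CPM for col1 against 11.6 ± 1.35 with ACLP (SD, n = 4) (log2 fold change 1.98 ± 0.176 SE, edgeR adjusted p = 1.78e-08). The summed level of the 7 endothelial markers was 7.78 to 12.2 CPM without ACLP and 19.5 to 20.9 CPM with it, nearly all of it from Erg and Tek, while Kdr was at 0 in all 8 libraries and Pecam1 had at most 10 counts. The other leading genes called higher were the annexin Anxa8 (1.95), the pseudokinase Trib3 (1.91), the TGFb feedback gene Pmepa1 (1.87), the filamin-binding Rflnb (1.82) and the cartilage collagen Col2a1 (1.8004), with log2 fold changes in brackets.

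Sned1, a fibronectin type III and EGF repeat protein of the extracellular matrix, had the largest fall among genes above 1000 CPM on col1 (ENSMUSG00000047793, chr1:93163563-93228787 in GRCm39). Sned1 measured 1094, 1073, 1179 and 1139 CPM in the col1 libraries against 255, 244, 249 and 199 with ACLP, so that the highest ACLP library was far under the lowest control (log2 fold change -2.24 ± 0.0614 SE, edgeR adjusted p = 2.45e-16). Sprr1a, a small proline-rich protein of epidermal envelopes that is also made by stressed cells, had 69.4, 77.00, 67.97 and 71.9 CPM in the col1 libraries against 17.1, 12.8, 19.5 and 11.1 with ACLP (log2 fold change -2.24 ± 0.119 SE, edgeR adjusted p = 4.91e-12). Gfra1, the receptor that binds GDNF, had 29.4, 35.6, 28.6 and 38.04 CPM in the col1 libraries against 9.704, 8.89, 10.1 and 11.3 with ACLP (log2 fold change -1.72 ± 0.111 SE, edgeR adjusted p = 1.2e-10). The groups did not overlap for any of these genes. Further leading genes called lower were Crocc2 (-2.36), Gm830 (-2.26), the procollagen protease Adamts14 (-1.78), the proteoglycan Lum (-1.77), the CREB family factor Creb5 (-1.72), the selenium-binding Selenbp1 (-1.67) and the Golgi mannosidase Man1c1 (-1.66). Among called genes, the largest rises by difference in CPM were those of Col1a1, Col1a2, Col2a1, Lox and Col5a2. The largest falls among called genes by the same measure were in the heparin-binding growth factor Ptn (3771 to 2042 CPM, log2 fold change -0.89), the complement component C3 (2685 to 1748 CPM), Sned1, the immediate early receptor Nr4a1 (543 to 318 CPM) and the glutathione transferase Gstm1 (463 to 271 CPM).

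**Figure D2:**
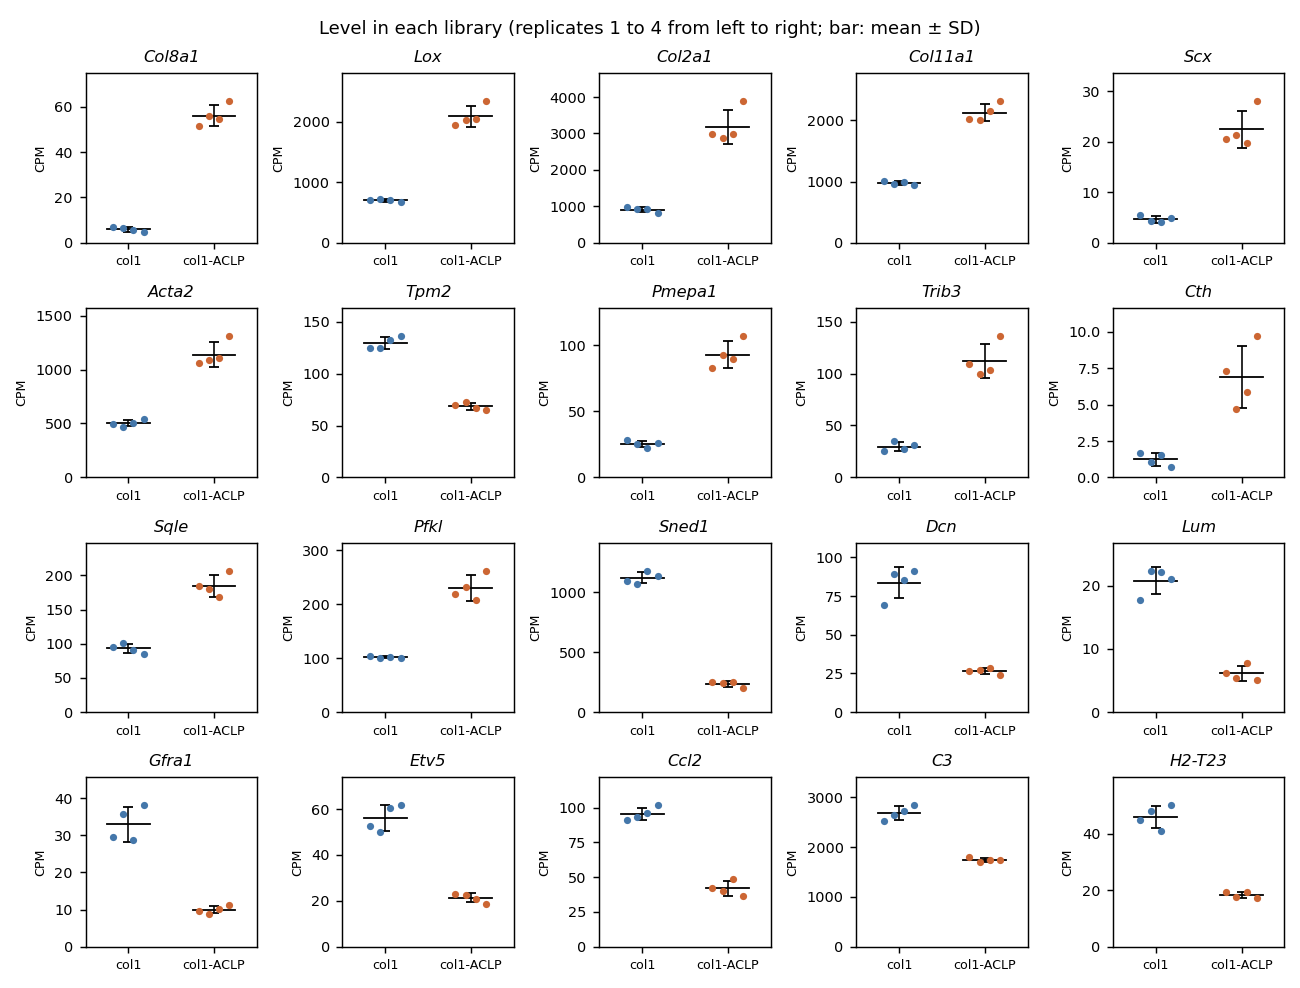
Panels show 20 genes, with the level in CPM on the y axis from 0, the col1 libraries in blue, the col1-ACLP libraries in orange and bars for the mean ± SD of 4 libraries. In each panel the groups stand apart, for example at 4.60 to 6.98 CPM and 51.5 to 62.3 CPM for Col8a1.

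Genes are described from here by 43 lists, each set beside the 10.2% and 9.45% of all tested genes that passed as higher and lower. A pair of levels written as a range runs from the mean of the 4 col1 libraries to that of the 4 col1-ACLP libraries, and numbers in brackets without a unit are log2 fold changes. With library sizes alone, the falls moved by more than 1.5 times in several lists. Where that is not given with the list, they went from 0 to 1 for G1/S genes, from 1 to 2 for the ATF4 group, from 1 to 2 for glycolysis, from 3 to 5 for ribosomal proteins, from 1 to 3 for DNA methyltransferases and TET enzymes and from 1 to 2 for the hyaluronan group. Fibrillar collagens form the load-bearing rods of connective tissue. Of the 10 tested, 6 rose and 2 fell, and the median log2 fold change was 0.73. Col1a1 measured 11857, 12116, 11735 and 11929 CPM in the col1 libraries against 20607, 18559, 20187 and 24438 with ACLP (log2 fold change 0.81 ± 0.052 SE, edgeR adjusted p = 9.96e-11), and its partner chain Col1a2 rose from 7310.4 to 11485 CPM (log2 fold change 0.65 ± 0.0409 SE, edgeR adjusted p = 7.72e-11). The 4 col1 libraries were close together for Col1a1, and among the ACLP libraries replicate 4 was the highest. Col2a1, the collagen of cartilage, measured 989, 922, 928 and 807 CPM in the col1 libraries against 2975, 2871, 2974 and 3877 with ACLP (log2 fold change 1.8004 ± 0.0739 SE, edgeR adjusted p = 1.3e-13). The fibril-nucleating chains rose together, Col5a1 from 1024 to 1942 CPM (0.92), Col5a2 from 1566 to 2830.1 CPM (0.85) and Col11a1 from 982 to 2123 CPM (1.11). Other chains of the same 2 types fell slightly, Col5a3 by 0.25 and Col11a2 by 0.195 on the log2 scale. Col3a1, the partner of type I collagen in soft tissue, was at 8652 ± 347 CPM for col1 against 9088 ± 309.8 with ACLP (SD, n = 4) with overlapping libraries (log2 fold change 0.07 ± 0.0339 SE, edgeR adjusted p = 0.165), and the 95% interval of its log2 fold change was 0.004 to 0.14. Per kilobase of gene length, the level of Col1a1 went from 1815 to 3192 CPM, that of Col1a2 from 588 to 924 CPM and that of Col3a1 from 881 to 926 CPM. Col3a1 thus stood above Col1a2 in level on col1 and close to it with ACLP, and under Col1a1 in both.

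Collagens outside the fibrillar group split by type. Among 18 tested, 8 rose and 3 fell (median 0.37). Both chains of collagen VIII rose, with Col8a2 at 7.12 ± 0.941 CPM for col1 against 13.3 ± 2.06 with ACLP (SD, n = 4) (log2 fold change 0.901 ± 0.144 SE, edgeR adjusted p = 7.05e-05). The beaded-filament collagen VI went the other way, with Col6a1 at 6434, 6593, 6669 and 6969 CPM in the col1 libraries against 5132, 4736, 4954 and 5036 with ACLP (log2 fold change -0.43 ± 0.0341 SE, edgeR adjusted p = 3.6e-09). Col6a2 fell as well (-0.45), and Col6a3 stayed at 1409 ± 75.8 CPM for col1 against 1402 ± 126 with ACLP (SD, n = 4) with a log2 fold change of -0.01 and a 95% interval of -0.11 to 0.096. Basement membranes are sheets of collagen IV, laminin, nidogen and perlecan under epithelia and around muscle. Of 20 such genes, 9 rose and 3 fell (median 0.17), with no rise beyond the 0.58 threshold. Agrin, Agrn, rose by 0.44, Lamb3 by 0.298 and the collagen IV chains Col4a1 and Col4a2, which share a promoter region, by 0.14 and 0.26. Col18a1, whose fragment endostatin is known to curb vessel growth, had 145, 176, 164 and 191 CPM in the col1 libraries against 71.9, 70.5, 70.5 and 66.7 with ACLP (log2 fold change -1.27 ± 0.0671 SE, edgeR adjusted p = 4.58e-12), with the groups well apart. Nid1 and Lama5 fell less, by 0.45 and 0.35 on the log2 scale.

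New collagen chains are hydroxylated, folded and trimmed before lysyl oxidases join them. In this group 18 of 31 tested genes rose and 3 fell (median 0.22). Lox, the enzyme that opens the crosslinking reaction, measured 711, 726, 707 and 672 CPM in the col1 libraries against 1949, 2033, 2048 and 2336 with ACLP, without overlap. That was a log2 fold change of 1.57 ± 0.0486 SE (edgeR adjusted p = 1.54e-15). Loxl4 rose too (72.97 to 183 CPM, 1.32), whereas Loxl1, known for crosslinking elastin, fell (207 to 159.8 CPM, -0.37). The prolyl hydroxylase subunits rose together, P4ha1 from 214 to 389.8 CPM (log2 fold change 0.87 ± 0.0505 SE, edgeR adjusted p = 2.55e-11), P4ha2 by 0.63, P4ha3 by 0.6005 and P4hb by 0.398. Rises were also seen in the lysyl hydroxylases Plod1 (0.65), Plod2 (0.29) and Plod3 (0.31), and in the collagen chaperone Serpinh1 (0.45). Procollagen proteases included falls. Adamts14, which removes the amino propeptide, had 36.4, 35.3, 39.4 and 37.8 CPM in the col1 libraries against 10.3, 11.9, 8.65 and 12.5 with ACLP (log2 fold change -1.78 ± 0.105 SE, edgeR adjusted p = 3.23e-11), and Bmp1, which removes the carboxyl propeptide, fell from 625 to 477 CPM (-0.39). Adamts2, which acts on the same propeptide as Adamts14, was at 104 to 109 CPM and did not pass (95% interval of the log2 fold change -0.05 to 0.19).

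Small leucine-rich proteoglycans coat collagen fibrils and set their width. Of 12 tested, 5 rose and 3 fell. Fmod measured 29.8, 31.7, 31.7 and 37.3 CPM in the col1 libraries against 81.8, 75.5, 86.7 and 85.5 with ACLP (log2 fold change 1.33 ± 0.0731 SE, edgeR adjusted p = 9.11e-12), and Dcn measured 68.9, 88.97, 85.1 and 91.3 CPM in the col1 libraries against 26.9, 27.01, 28.7 and 23.9 with ACLP (log2 fold change -1.65 ± 0.0835 SE, edgeR adjusted p = 2.68e-12). These fibril-binding relatives thus moved in opposite directions without overlap in either. On the side of Fmod stood Prelp (656 to 1143 CPM, 0.8002) and Bgn (3358 to 4522 CPM, 0.43), and on the side of Dcn stood Lum (20.8 to 6.11 CPM, -1.77) and Podn (24.6 to 13.7 CPM, -0.84). Ogn was at 812 to 787 CPM and did not pass. In the elastic fibre group 5 of 18 rose and 3 fell. Eln, elastin itself, went from 5.85 to 10.9 CPM (0.897) and Fbln5, which guides its assembly, from 639 to 1099 CPM (0.78), while Efemp1, a fibulin at 1.02, 1.51, 1.52 and 1.603 CPM in the col1 libraries against 0.122, 0.359, 0 and 0.283 with ACLP, fell at a very low level (log2 fold change -2.85 ± 0.653 SE, edgeR adjusted p = 0.00283). Without col1-ACLP replicate 2, 1 elastic fibre gene passed as lower in place of 3.

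Matricellular and adhesive glycoproteins link cells to the fibrils, and 16 of 29 rose while 6 fell (median 0.26). Fn1, fibronectin, passed at a small size, with 16438, 16958, 17958 and 18677 CPM in the col1 libraries against 21027, 19427, 21830.0 and 23987 with ACLP (log2 fold change 0.301 ± 0.0472 SE, edgeR adjusted p = 5.55e-05). Thbs1, which can release latent TGFb, rose from 1022 to 2116 CPM (log2 fold change 1.05 ± 0.0503 SE, edgeR adjusted p = 1.17e-12). Ccn2, the connective tissue growth factor, had 44.5, 49.5, 42.4 and 54.7 CPM in the col1 libraries against 112, 119, 124 and 173 with ACLP (log2 fold change 1.47 ± 0.104 SE, edgeR adjusted p = 5.06e-10). Ccn4 rose by 1.63, periostin (Postn) by 1.02, Ccn5 by 0.596, Tnc by 0.43 and Sparc by 0.43, whereas Ccn3 fell by 0.56, Smoc2 by 0.61 and osteopontin (Spp1) by 0.76 on the log2 scale. Cell surface and hyaluronan genes leaned upward, with 9 of 18 higher and 1 lower (2 without col1 replicate 2 or 4). Brevican (Bcan) rose at a low level (0.473 to 2.11 CPM, 2.14), and the glypican Gpc1 measured 464, 454, 449 and 448 CPM in the col1 libraries against 783, 736, 752 and 879 with ACLP (log2 fold change 0.796 ± 0.0489 SE, edgeR adjusted p = 5.39e-11). Proteases and their inhibitors split evenly, with 9 higher and 9 lower of 37. The inhibitor Timp3 rose from 289 to 562 CPM (log2 fold change 0.96 ± 0.053 SE, edgeR adjusted p = 9.91e-12), the plasminogen activators Plat and Plau fell by 0.81 and 0.696, and the gelatinase Mmp2 was at 863 to 852 CPM without passing.

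**Figure D3:**
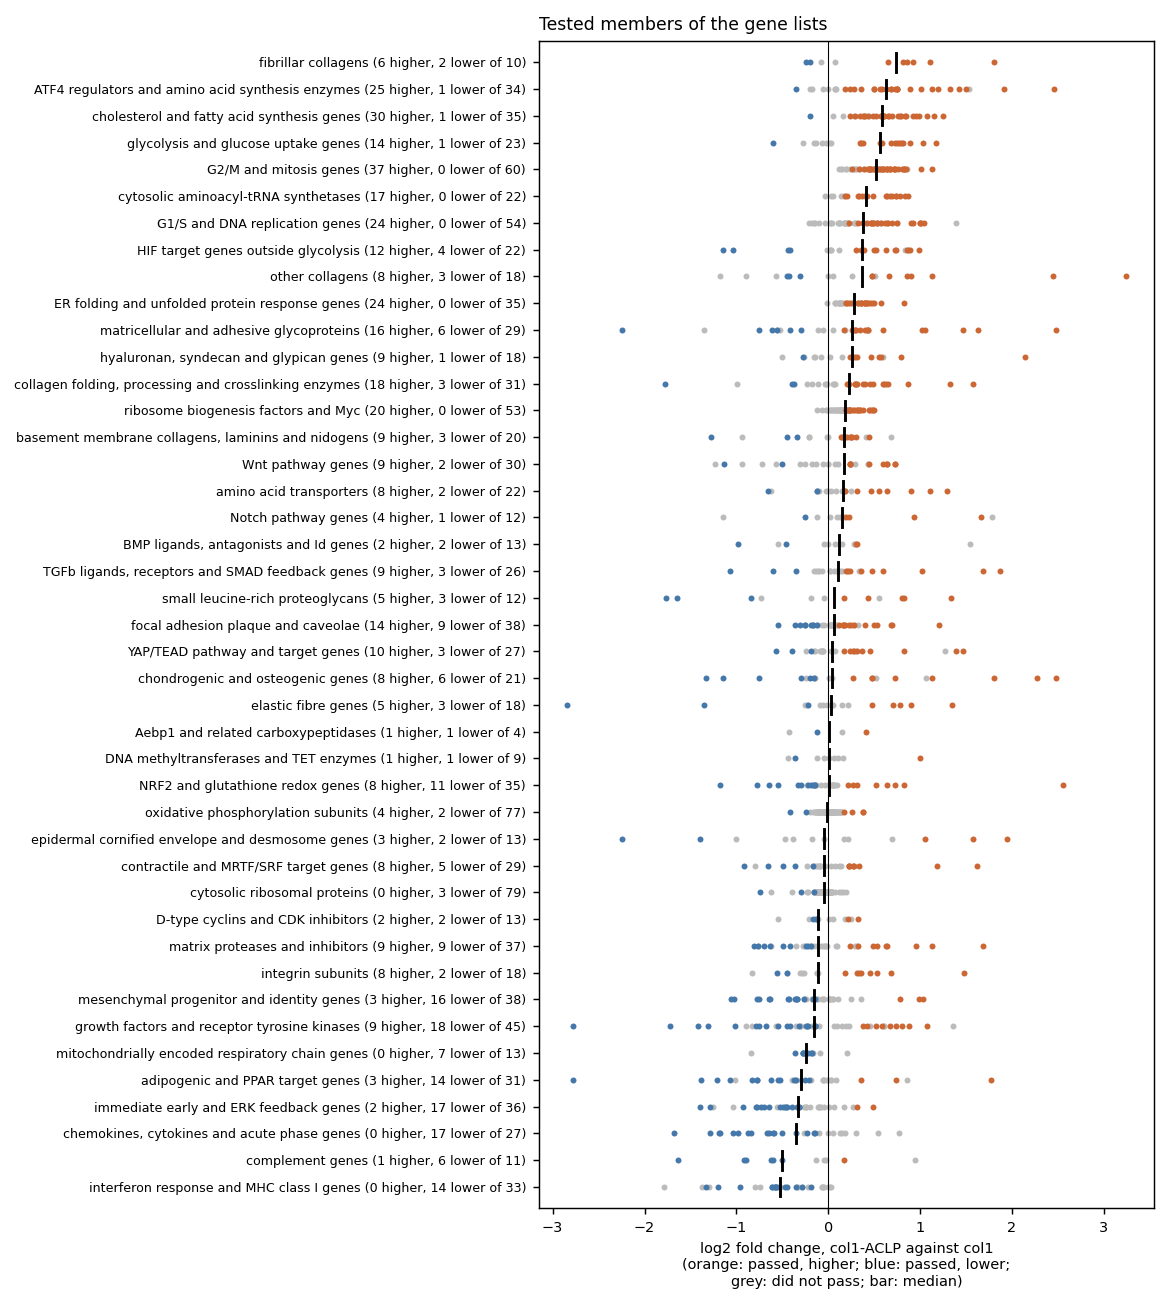
Each row is a gene list and each point a tested member, placed by its log2 fold change on the x axis, in orange if it passed as higher, in blue if lower and in grey if it did not pass, with a black bar at the median. Medians run from 0.73 for fibrillar collagens at the top to -0.52 for interferon response genes at the bottom, and the counts passing stand in each label.

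Integrins are the paired receptors that carry force from the matrix into the cell. Of 18 subunits tested, 8 rose and 2 fell. The median was -0.12, on the other side of 0, with 8 estimates above 0 and 10 below. Itgb1, the common partner of the collagen-binding alpha chains, measured 918, 928, 954 and 978 CPM in the col1 libraries against 1028, 1079.7, 1093 and 1068 with ACLP (log2 fold change 0.18 ± 0.0384 SE, edgeR adjusted p = 0.00178), a small shift without overlap. Itga11, the alpha chain that pairs with it on fibrillar collagen, was low at 0.522, 1.38, 1.21 and 0.418 CPM in the col1 libraries against 3.63, 1.91, 2.07 and 2.196 with ACLP (log2 fold change 1.48 ± 0.413 SE, edgeR adjusted p = 0.013). Itga6, a laminin receptor chain, had 57.5, 63.8, 53.8 and 52.4 CPM in the col1 libraries against 90.7, 92.8, 90.1 and 90.8 with ACLP (log2 fold change 0.68 ± 0.0628 SE, edgeR adjusted p = 3.4e-08). Rises were also found for Itgb3 (0.53), Itga1 (0.45), Itgav (0.35), Itgb5 (0.34) and Itgb4 (0.31), and falls for Itga2b (-0.45) and Itga7 (-0.56). The fibronectin receptor chain Itga5 was at 277 to 256 CPM and did not pass. Of the focal adhesion and caveolar genes, 14 of 38 rose and 9 fell, and with library sizes alone the counts turned to 9 and 10. Cav1, the coat protein of caveolae, measured 27.2, 23.2, 28.1 and 29.8 CPM in the col1 libraries against 63.4, 55.7, 56.5 and 73.8 with ACLP (log2 fold change 1.201 ± 0.0912 SE, edgeR adjusted p = 1.49e-09), and Cav2 rose by 0.68, while Cavin1, which shapes the same pits, fell from 1028 to 799 CPM (-0.36). The actin crosslinkers Actn1 (0.53) and Actn4 (0.501) rose, talin Tln1 was at 809 to 841 CPM without passing, and the tensin Tns1 fell by 0.54. The GTPase gene Rhoa rose by 0.29 and Cdc42 by 0.16, and Rac1 had a log2 fold change of 0.095 with a 95% interval of 0.004 to 0.19 and did not pass.

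Contractile genes showed no common direction. Of 29 tested genes of contraction and of the MRTF/SRF factors, 8 rose and 5 fell (median -0.04), and with library sizes alone 8 fell. Acta2, smooth muscle alpha actin, measured 499, 468, 507 and 538 CPM in the col1 libraries against 1057, 1085, 1104 and 1309 with ACLP (log2 fold change 1.18 ± 0.0576 SE, edgeR adjusted p = 1.55e-12), with each ACLP library far above each control. Its relative Actg2 rose at a low level (1.93 to 5.98 CPM, 1.62). The beta tropomyosin gene Tpm2 had 124, 125, 132 and 136 CPM in the col1 libraries against 70.1, 72.6, 67.2 and 64.8 with ACLP (log2 fold change -0.91 ± 0.055 SE, edgeR adjusted p = 4.02e-11), lower and without overlap. The myosin light chain kinase Mylk (26.7 to 16.98 CPM, -0.65), smoothelin Smtn (65.1 to 46.2 CPM, -0.495) and Fhl2 (-0.36) fell as well. Tpm1 (0.28), Cald1 (0.33) and the nonmuscle myosin Myh9 (0.27) rose slightly, and the actin genes Actb and Actg1 did not pass. Tagln and Cnn1, defining genes of smooth muscle, had 0 to 17 and 2 to 50 counts in each library and were not tested. The summed level of the 6 smooth muscle markers was 491 to 554 CPM without ACLP and 1050 to 1273 CPM with it, nearly all of it Acta2. A CArG box, the sequence that SRF binds, was found by its consensus in 1.67% of 10553 RefSeq promoters of tested genes (300 bases each, both strands), in 7 of 26 promoters of these genes and in 1 of the 12 whose gene passed.

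**Figure D4:**
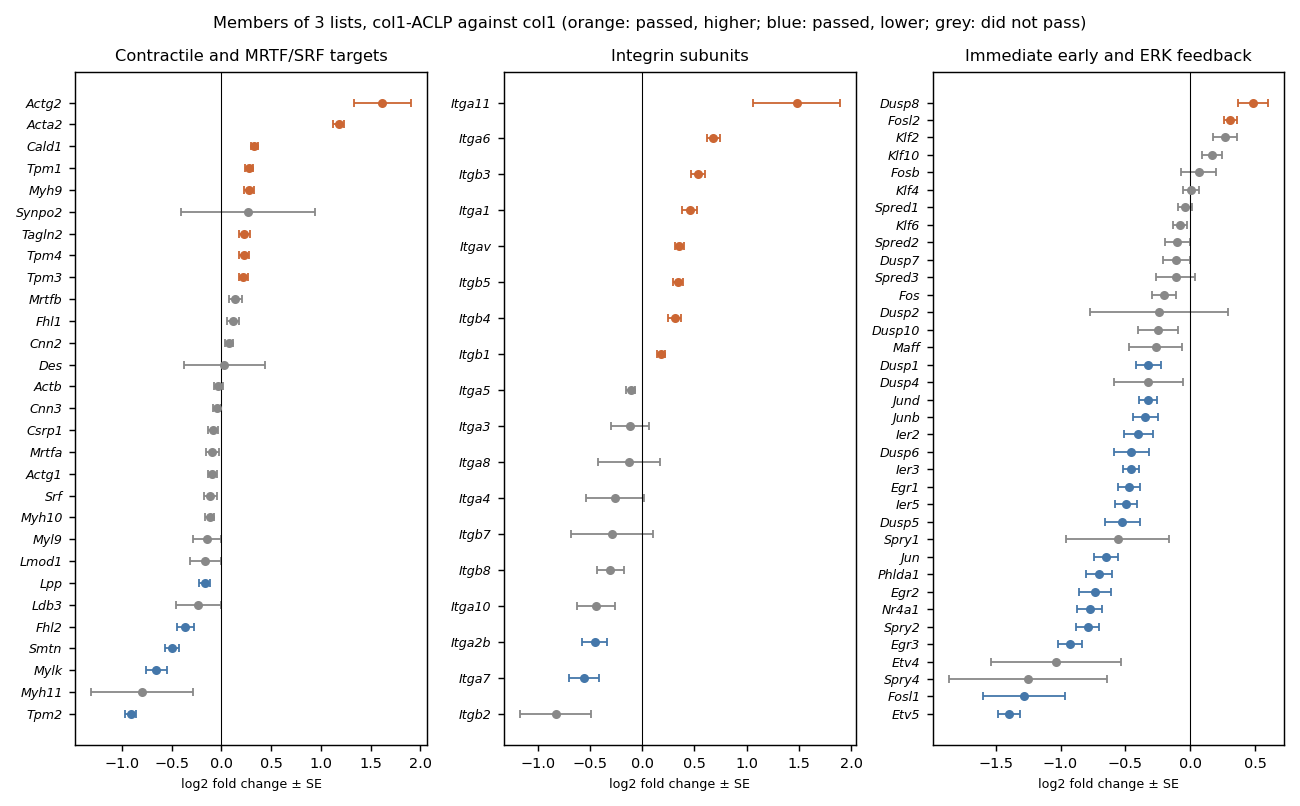
Points show the log2 fold change ± SE of each tested member of 3 lists, in orange if it passed as higher, in blue if lower and in grey if it did not pass. Actg2 and Acta2 lead the contractile genes at 1.62 and 1.18 while Tpm2 closes them at -0.91, and most immediate early genes lie under 0 (30 of 36).

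The list of YAP and TEAD factors, their regulators and the genes they are known to drive rose in part, with 10 of 27 higher and 3 lower (library sizes alone, 5 lower). Beside Ccn2, the rises were led by Ddah1 (9.57 to 25.1 CPM, 1.39) and the factor Tead4 (6.56 to 11.6 CPM, 0.82), while Ccn1, a classical target, moved little (493 to 599 CPM, 0.28). Yap1 (-0.06), Wwtr1 (-0.07) and the target Axl (-0.05) did not pass, and the repressor Vgll4 fell from 106 to 71.7 CPM (-0.57). In the TGFb group 9 of 26 rose and 3 fell (library sizes alone, 5 lower). The rises included feedback inhibitors that SMADs switch on. Pmepa1 measured 28.3, 24.96, 22.5 and 26.1 CPM in the col1 libraries against 82.5, 92.6, 89.7 and 107 with ACLP (log2 fold change 1.87 ± 0.0816 SE, edgeR adjusted p = 2.92e-13), Skil rose from 15.6 to 31.5 CPM (1.02) and Smad7 from 9.24 to 14.01 CPM (0.597). Inhba, a chain of activin, had 6.09, 9.14, 7.44 and 5.25 CPM in the col1 libraries against 17.9, 21.4, 23.5 and 26.99 with ACLP (log2 fold change 1.69 ± 0.155 SE, edgeR adjusted p = 3.12e-08). The 3 TGFb ligand genes did not pass (0.13, 0.15 and 0.09 for Tgfb1, Tgfb2 and Tgfb3), nor did the receptors Tgfbr1 (-0.06) and Tgfbr2 (0.06), whereas the coreceptor Tgfbr3 fell by 0.604, the TGFb docking protein Lrrc32 by 1.07 and Smad3 by 0.35.

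BMP genes gave 2 rises (Bmp4, 0.31, and Acvr1, 0.304) and 2 falls among 13 tested, with the antagonist Nbl1 at 138, 146, 140.3 and 164 CPM in the col1 libraries against 72.9, 78.8, 74.2 and 71.7 with ACLP (log2 fold change -0.98 ± 0.0584 SE, edgeR adjusted p = 3.46e-11) and the target Id2 lower by 0.46. Of the Wnt pathway, 9 of 30 rose and 2 fell, and 1 fell without col1 replicate 3, col1-ACLP replicate 1 or col1-ACLP replicate 4. The R-spondin receptor Lgr4 rose from 169 to 264 CPM (0.64), with smaller levels but like changes for the receptor Fzd5 (0.72) and the antagonist Frzb (0.72), and the agonist Rspo2 fell from 331 to 234 CPM (-0.502). In Notch signalling the ligand Jag1 had 231, 220.2, 220.1 and 208 CPM in the col1 libraries against 395, 392, 416 and 479 with ACLP (log2 fold change 0.94 ± 0.0568 SE, edgeR adjusted p = 4.58e-11) and the target Hey2 2.14, 2.46, 1.76 and 2.02 CPM in the col1 libraries against 5.83, 7.82, 5.57 and 7.47 with ACLP (log2 fold change 1.67 ± 0.207 SE, edgeR adjusted p = 2.54e-06). Notch1 rose by 0.22, and Hes1, another target, was at 77.8 to 85.4 CPM with wide spread and did not pass. In all, 4 of 12 Notch genes rose and 1 fell.

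ATF4 is a transcription factor translated under amino acid shortage or ER stress, and it turns on enzymes that make serine, glycine, asparagine, proline and cysteine. Of 34 regulators and enzymes, 25 rose and 1 fell (median 0.63), and 2 fell without col1 replicate 2. Trib3, a target and brake of ATF4, measured 25.6, 35.2, 27.4 and 30.9 CPM in the col1 libraries against 109, 99.1, 103 and 136 with ACLP (log2 fold change 1.91 ± 0.0966 SE, edgeR adjusted p = 2.68e-12). Asns, asparagine synthetase, measured 65.1, 58.6, 61.7 and 66.3 CPM in the col1 libraries against 153, 155, 149.8 and 175 with ACLP (log2 fold change 1.33 ± 0.0591 SE, edgeR adjusted p = 3.72e-13), and Chac1, which degrades glutathione, measured 17.3, 22.1, 13.8 and 20.8 CPM in the col1 libraries against 48.6, 43.3, 59.7 and 58.1 with ACLP (log2 fold change 1.4995 ± 0.121 SE, edgeR adjusted p = 3.91e-09). None of them overlapped between groups. The serine route rose along its length, with Phgdh (0.74), Psat1 (0.63), Psph (1.01), Shmt2 (0.89), Mthfd2 (23.5 to 63.1 CPM, 1.43) and Aldh1l2 (1.13), and the proline enzymes Aldh18a1 (0.68) and Pycr1 (41.4 to 94.7 CPM, 1.19) rose with it. Atf4 itself rose from 272 to 386 CPM (0.501). Of the other members, Ddit3 (0.08), Atf3 (0.08) and Ppp1r15a (-0.06) did not pass, and Cebpb fell by 0.35. Of the cytosolic aminoacyl-tRNA synthetases, which charge tRNA with amino acids, 17 of 22 rose and 0 fell, led by alanine (Aars, 251 to 459 CPM, log2 fold change 0.87 ± 0.0519 SE, edgeR adjusted p = 3.46e-11), isoleucine (Iars, 0.83) and glycine (Gars, 0.78), while the lysine enzyme Kars was at 130.4 to 135 CPM and did not pass. Of the amino acid transporters 8 of 22 rose and 2 fell, with 1 fall when col1 replicate 1 or 3 or col1-ACLP replicate 1, 2 or 3 was left out. The large neutral carrier Slc7a5 had 114, 122, 116 and 121 CPM in the col1 libraries against 251, 231, 242 and 293 with ACLP (log2 fold change 1.103 ± 0.0609 SE, edgeR adjusted p = 9.91e-12), the neutral carrier Slc1a4 rose by 1.29, the cationic carrier Slc7a1 by 0.902 and the cystine carrier Slc7a11 by 0.64.

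Promoter sequence is shown for Asns, Chac1 and Slc7a11 because all 3 genes rose and ATF4 has a short, known binding sequence. Only promoters with a match were shown, here and below for interferon genes. Other rising genes of the group, such as Cth and Trib3, are not shown. The sequences are the 200 bases before the annotated start, from RefSeq on GRCm38.p6 and in the direction of the gene, with matches to TGATGNAA, the core that ATF4 shares with C/EBP partners, on either strand in capitals.
Asns, chr6:7693210-7693409, minus strand: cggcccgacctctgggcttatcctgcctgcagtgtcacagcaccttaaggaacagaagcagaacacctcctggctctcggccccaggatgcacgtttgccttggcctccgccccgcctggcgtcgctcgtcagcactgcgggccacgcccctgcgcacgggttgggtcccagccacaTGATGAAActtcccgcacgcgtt
Chac1, chr2:119351042-119351241, plus strand: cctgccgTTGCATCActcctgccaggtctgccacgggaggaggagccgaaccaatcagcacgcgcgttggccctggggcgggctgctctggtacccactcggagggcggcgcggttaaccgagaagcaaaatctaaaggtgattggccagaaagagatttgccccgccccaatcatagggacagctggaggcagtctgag
Slc7a11, chr3:50443614-50443813, minus strand: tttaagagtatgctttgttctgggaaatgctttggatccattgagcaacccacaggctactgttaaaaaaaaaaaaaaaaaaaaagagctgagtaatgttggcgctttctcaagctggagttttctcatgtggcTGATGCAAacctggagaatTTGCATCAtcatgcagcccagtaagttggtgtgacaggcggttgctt
In the longer window of 250 bases before to 50 after the start, this core was found in 2.80% of the 10553 promoters, in 8 of 30 promoters of the ATF4 group, in 5 of 15 of the synthetases and in 3 of 16 of the transporters. Among members whose gene passed, it was found in 7 of 22, 5 of 12 and 2 of 7. A match is a run of letters and not a measured site. For each motif in the text, the share among tested members is a property of how the list was written and not of the changes with ACLP.

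Cells make cholesterol from acetyl-CoA by a long enzyme route under the factor SREBP2. Of 35 tested genes of cholesterol and fatty acid synthesis, 30 rose and 1 fell (median 0.58). Sqle, squalene epoxidase, measured 95.7, 101, 90.9 and 85.6 CPM in the col1 libraries against 184, 181, 168 and 207 with ACLP (log2 fold change 0.99 ± 0.0623 SE, edgeR adjusted p = 7.96e-11), and Msmo1, a sterol methyl oxidase, measured 78.3, 78.5, 74.8 and 63.1 CPM in the col1 libraries against 135, 138, 132 and 153 with ACLP (log2 fold change 0.92 ± 0.0667 SE, edgeR adjusted p = 7.26e-10). The groups lay apart for both. Along the route Hmgcs1 (0.79), Fdft1 (0.83) and Cyp51 (1.07) rose, as did Srebf2 (332 to 503 CPM, 0.599). Cyp51 shares its locus with Akap9 on the other strand. The fatty acid enzymes Fasn (0.38), Acaca (0.43) and Scd2 (0.602) rose too, and the single fall was that of the SREBP brake Insig1 (81.2 to 70.9 CPM, -0.195), which did not pass without col1 replicate 3 or col1-ACLP replicate 1, 2 or 3. TCACNCCAC, a form of the sterol regulatory element that SREBP factors bind, was found on either strand in 1.44% of the 10553 promoters and in 1 of 25 of this list. Among members whose gene passed it was found in 1 of 22.

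Glycolysis breaks glucose down to pyruvate and lactate. Of 23 glycolysis and glucose uptake genes, 14 rose and 1 fell (median 0.56). Pfkl, a subunit of the committing enzyme phosphofructokinase, had 105, 101, 102 and 101 CPM in the col1 libraries against 219, 233, 207 and 262 with ACLP (log2 fold change 1.18 ± 0.0599 SE, edgeR adjusted p = 2.9e-12). Hk2 (7.67 to 15.7 CPM, 1.03) and Pgk1 (222 to 411 CPM, 0.89) rose as well, and Hk1, the housekeeping hexokinase, was at 344 to 347 CPM with a 95% interval of -0.07 to 0.099 for its log2 fold change. Ldhb fell by 0.599. HIF targets outside glycolysis moved in both directions, with 12 of 22 higher, among them Higd1a (0.99) and Ero1a (77.3 to 143 CPM, 0.89), and 4 lower. The lower ones included Epas1, the gene of HIF-2alpha, at 32.6, 27.98, 32.9 and 31.7 CPM in the col1 libraries against 16.3, 16.4, 14.2 and 14.1 with ACLP (log2 fold change -1.03 ± 0.0929 SE, edgeR adjusted p = 2.18e-08), and Car9, a defining hypoxia target, at 14.6, 16.1, 16.7 and 17.6 CPM in the col1 libraries against 6.59, 9.11, 7.11 and 6.48 with ACLP (log2 fold change -1.15 ± 0.132 SE, edgeR adjusted p = 9.43e-07). Ndrg1, another such target, was at 177 to 176 CPM and did not pass. ACGTG, the core that HIF factors bind, stood on either strand in 28.9% of the 10553 promoters, in 14 of 23 of the glycolysis list and in 15 of 18 of the other HIF targets. Among members whose gene passed, it stood in 8 of 15 and 12 of 14.

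Secreted proteins fold in the endoplasmic reticulum (ER). Of 35 genes of ER folding and the unfolded protein response, 24 rose and 0 fell (median 0.28), with 1 beyond the threshold of 0.58, the disulfide isomerase Pdia5 (25.1 to 44.5 CPM, log2 fold change 0.83 ± 0.0783 SE, edgeR adjusted p = 5.2e-08). The chaperones Hyou1 (0.57) and Hsp90b1 (0.502) rose without overlap. Ribosome biogenesis factors gave 20 rises and 0 falls of 53, such as the helicase Ddx21 (92.96 to 131 CPM, 0.496). The 79 cytosolic ribosomal proteins gave 0 rises and 3 falls, and with a library left out 1 fall (without col1 replicate 3) to 6 falls (without col1-ACLP replicate 2) and at most 1 rise (without col1-ACLP replicate 4). Rps27a was lower with overlapping libraries (90.7, 203, 263 and 193 CPM in the col1 libraries against 107, 96.1, 161 and 82.96 with ACLP). It did not pass under DESeq2, with all 12 libraries or without col1 replicate 3. Copies in the genome may make its count uncertain, which was not tested. Nuclear genes of oxidative phosphorylation gave 4 rises and 2 falls of 77 (median -0.01, 0.03 without col1 replicate 2 and -0.06 with library sizes alone), counts under the shares of all tested genes.

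**Figure D5:**
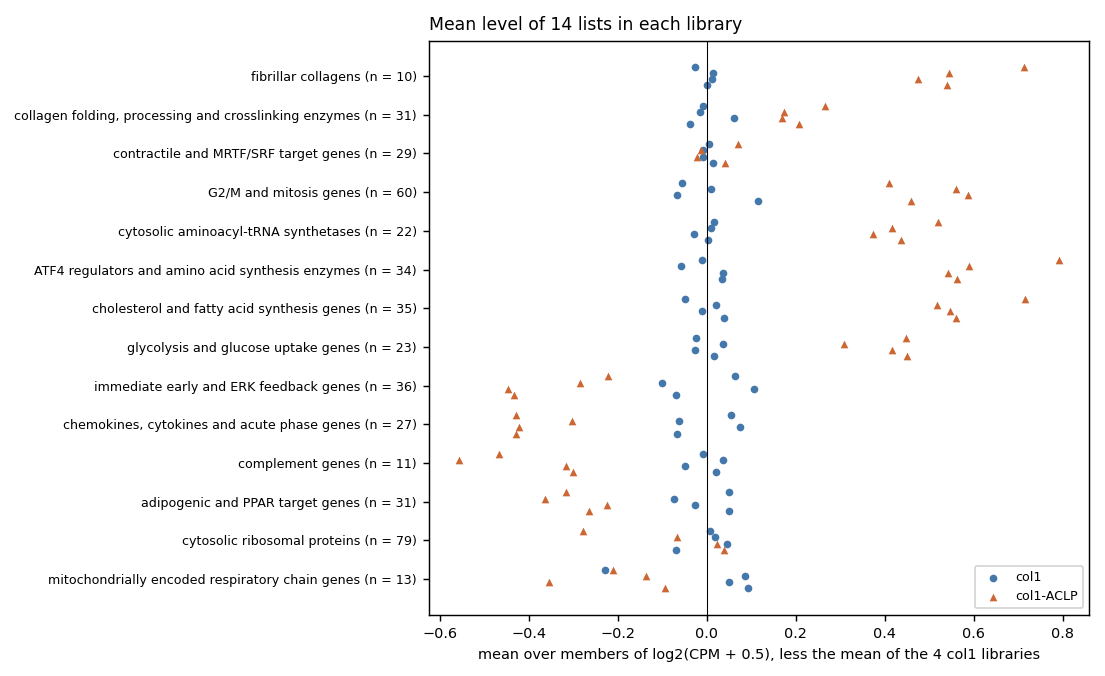
For 14 lists, each point is a library, placed by the mean over tested members of log2(CPM + 0.5) less the mean of the col1 libraries. The col1 libraries (blue circles) and col1-ACLP libraries (orange triangles) stand apart for the collagen, crosslinking, mitosis, synthetase, ATF4, cholesterol, glycolysis, immediate early, chemokine, complement and adipogenic lists and overlap for contractile genes, ribosomal proteins and mitochondrially encoded genes.

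Of 60 genes of G2/M and mitosis, all had estimates above 0, 37 passed as higher and 0 as lower (median 0.52), and 25 to 35 passed with a library left out. The proliferation marker Mki67 measured 32.5, 30.8, 34.9 and 31.6 CPM in the col1 libraries against 46.5, 50.4, 49.1 and 54.5 with ACLP (log2 fold change 0.63 ± 0.0723 SE, edgeR adjusted p = 9.46e-07), and the topoisomerase Top2a measured 45.1, 40.5, 35.02 and 40.04 CPM in the col1 libraries against 64.5, 73.2, 65.7 and 60.2 with ACLP (log2 fold change 0.71 ± 0.0775 SE, edgeR adjusted p = 3.74e-07). Aurkb, a kinase of chromosome alignment, rose from 4.11 to 8.28 CPM (1.01) and Sgo1, which guards sister chromatid cohesion, from 2.03 to 4.44 CPM (1.13). Cdk1, the mitotic kinase, was at 22.7 to 25.1 CPM and did not pass (0.15). The cell cycle homology region core TTTGAA stood in 14.5% of the 10553 promoters and in 35 of 51 promoters of this group, on either strand. It stood in 24 of the 30 whose gene passed. For G1/S and DNA replication 24 of 54 rose and 0 fell, and 17 to 25 rose with a library left out. Uhrf1, which carries DNA methylation through replication, had 13.3, 11.9, 10.4 and 10.5 CPM in the col1 libraries against 24.4, 21.6, 22.00 and 24.02 with ACLP (log2 fold change 0.999 ± 0.107 SE, edgeR adjusted p = 3.18e-07), and the helicase subunit Gins1 rose from 1.51 to 3.12 CPM (1.04). Upstream regulators changed little, with Ccnd1 higher by 0.22, Ccnd2 by 0.32 and the inhibitor Cdkn1a lower by 0.13, which did not pass in 5 of the 8 fits with a library left out. Among 13 D cyclins and CDK inhibitors 2 rose and 2 fell, and 1 fell without col1 replicate 2 or 4 or col1-ACLP replicate 1, 2 or 3 and 3 without col1 replicate 1. With library sizes alone 2 rose and 4 fell.

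Immediate early genes answer growth factor and ERK signals within minutes and encode factors such as FOS, JUN and EGR1, along with the phosphatases and Sprouty proteins that quench ERK. Of 36 tested, 17 fell (13 to 18 with a library left out) and 2 rose (median -0.33). Etv5, an ETS factor that follows ERK activity, measured 52.7, 50.2, 60.4 and 61.6 CPM in the col1 libraries against 23.1, 22.6, 20.9 and 18.6 with ACLP (log2 fold change -1.397 ± 0.0864 SE, edgeR adjusted p = 6.15e-11), and Nr4a1 measured 488, 605, 491 and 588 CPM in the col1 libraries against 267, 262, 368 and 374 with ACLP (log2 fold change -0.77 ± 0.0956 SE, edgeR adjusted p = 2.43e-06). Neither overlapped, though the ACLP libraries of Nr4a1 fell into a lower and a higher pair. Egr1 (-0.47), Egr2 (-0.73), Egr3 (47.99 to 25.3 CPM, -0.93), Jun (-0.65), Junb (-0.34), Spry2 (-0.79), Dusp5 (-0.52) and Dusp6 (-0.45) fell. Fos, the best known member, had 299, 386, 284 and 360.4 CPM in the col1 libraries against 251, 249, 326 and 331 with ACLP, overlapping between groups (log2 fold change -0.202 ± 0.0919 SE, edgeR adjusted p = 0.14). The rises were those of Fosl2 (0.31) and the phosphatase Dusp8 (0.49).

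Stromal cells secrete chemokines and complement in inflammation. Of 27 chemokine, cytokine and acute phase genes, 17 fell and 0 rose (median -0.35), and 1 rose without col1 replicate 4. Ccl2, which draws monocytes, measured 90.8, 93.4, 96.01 and 102 CPM in the col1 libraries against 42.4, 39.8, 48.97 and 36.7 with ACLP (log2 fold change -1.19 ± 0.074 SE, edgeR adjusted p = 7.33e-11). The neutrophil chemokines Cxcl1 (271 to 137 CPM, -0.99) and Cxcl5 (218 to 96.5 CPM, -1.17), the homing factor Cxcl12 (405 to 259.8 CPM, -0.64) and the acute phase genes Saa3 (-1.28) and Lcn2 (-0.84) fell. Il6 (1.84 CPM on col1) had a log2 fold change of 0.54 with a 95% interval of -0.07 to 1.15 and did not pass, nor did Lif (0.77) and the receptor Il6st (0.06). Of 11 complement genes 6 fell and 1 rose, a rise (Masp1) that was lost with any library left out and with library sizes alone. C3, the central component, measured 2522, 2649, 2730.5 and 2839 CPM in the col1 libraries against 1809, 1703, 1738 and 1743 with ACLP (log2 fold change -0.62 ± 0.039 SE, edgeR adjusted p = 7.96e-11), with C4b (-0.92) and C1s1 (79.8 to 43.01 CPM, -0.89) also lower. Of the myeloid markers, Adgre1 and Tyrobp were at 0 in all 8 libraries, 2 of 8 were tested, and the sum, mostly Cd68, was 10.4 to 11.4 CPM without ACLP and 5.95 to 10.1 CPM with it.

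Interferon response and MHC class I genes had a median of -0.52, beside -0.51 for the complement genes (-0.39 and -0.54 without col1 replicate 2), with 14 of 33 lower and 0 higher. H2-T23, a nonclassical MHC class I gene, measured 44.7, 47.9, 40.9 and 49.99 CPM in the col1 libraries against 19.2, 17.6, 19.3 and 17.1 with ACLP (log2 fold change -1.33 ± 0.0833 SE, edgeR adjusted p = 7.72e-11), without overlap. The guanylate-binding Gbp2 had 8.203, 9.62, 9.57 and 8.39 CPM in the col1 libraries against 3.54, 4.72, 3.74 and 3.47 with ACLP (log2 fold change -1.21 ± 0.164 SE, edgeR adjusted p = 9.09e-06) and Ifit1 4.05, 3.97, 5.38 and 4.42 CPM in the col1 libraries against 1.68, 2.13, 2.84 and 2.48 with ACLP (log2 fold change -0.97 ± 0.234 SE, edgeR adjusted p = 0.0044). Irf1 (-0.58), the peptide transporter Tap2 (-0.62) and B2m (-0.19) fell, and Stat2 (0.03) and Irf9 (0.02) did not pass. MHC class I genes are near copies of each other, so that reads may be split among them. The promoters of Gbp2 and Ifit1 are shown as the falling counterpart of those above, again as 200 bases before the start from RefSeq on GRCm38.p6, with matches to the core of the interferon-stimulated response element (both GAAA repeats with a gap of 2 bases) on either strand in capitals.
Gbp2, chr3:142620463-142620662, plus strand: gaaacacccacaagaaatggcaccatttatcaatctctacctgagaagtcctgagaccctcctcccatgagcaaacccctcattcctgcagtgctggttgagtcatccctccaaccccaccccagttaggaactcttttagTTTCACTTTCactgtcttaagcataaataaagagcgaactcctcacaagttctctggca
Ifit1, chr19:34640689-34640888, plus strand: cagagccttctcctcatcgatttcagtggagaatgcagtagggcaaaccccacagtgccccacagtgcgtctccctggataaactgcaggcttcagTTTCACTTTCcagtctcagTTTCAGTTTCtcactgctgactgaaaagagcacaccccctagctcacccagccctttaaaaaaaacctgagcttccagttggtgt
This core stood in 3.57% of the 10553 promoters, in 12 of 26 promoters of the list and in 7 of the 10 whose gene passed.

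Genes of fat formation leaned downward. Of 31 adipogenic and PPAR target genes, 14 fell and 3 rose (median -0.302). Pparg, the nuclear receptor that commands adipogenesis, had 27.6, 28.2, 25.6 and 26.7 CPM in the col1 libraries against 16.9, 16.7, 19.6 and 16.8 with ACLP (log2 fold change -0.63 ± 0.0901 SE, edgeR adjusted p = 1.76e-05). Pdk4, a brake on glucose oxidation, measured 31.8, 36.7, 27.8 and 43.1 CPM in the col1 libraries against 13.9, 17.3, 13.9 and 15.1 with ACLP (log2 fold change -1.21 ± 0.117 SE, edgeR adjusted p = 6.64e-08), and the lipid droplet gene Plin4 fell from 349 to 166 CPM (-1.07). Falls were also seen in Angptl4 (-0.83), Lipe (-0.78), Cpt1a (-0.53) and the preadipocyte factor Ebf1 (189 to 111 CPM, -0.77). Fabp5 (0.73), Klf15 (1.77) and Zfp521 (0.35), a factor that holds back adipogenesis, rose. Adipoq and Plin1, which define mature fat cells, had 0 to 4 counts in each library, and the 6 adipocyte markers summed to 2.61 to 3.77 CPM without ACLP and 1.08 to 2.42 CPM with it.

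Among 38 genes of mesenchymal progenitors 16 fell and 3 rose (median -0.16). Pdgfra, a receptor that marks stromal progenitors, measured 399, 413, 414 and 454 CPM in the col1 libraries against 266, 249, 248 and 230.2 with ACLP (log2 fold change -0.76 ± 0.0507 SE, edgeR adjusted p = 2.09e-10). Pi16, a gene of adventitial progenitors, went from 73.5 to 35.3 CPM (-1.06), and the limb and body wall factors Osr1 (-0.64), Osr2 (-1.03), Prrx2 (-0.65) and Twist1 (-0.43) fell. The pericyte proteoglycan Cspg4 (297 to 509 CPM, 0.78), Foxd1 (0.98) and Gli1 (1.03) rose, and the surface markers Thy1 (0.05) and Ly6a (0.01) did not pass. Skeletal lineage genes split into 8 rises and 6 falls of 21. The rises took in Col2a1, Hapln1 and Scx and the chondrogenic factors Sox9 (0.27) and Sox6 (0.48), and the falls Spp1, Dmp1 (9.65 to 4.37 CPM, -1.14) and Phex (4.46 to 1.78 CPM, -1.33), genes of bone mineral, with the osteoblast factor Runx2 (-0.15). Acan and Sp7, defining genes of cartilage and of bone, were too low to be tested.

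Growth factors and their receptors fell more often than they rose, 18 against 9 of 45 tested. Akap12, a scaffold of kinase signalling outside this list, is named because the study names it, and it fell from 281 to 123 CPM (log2 fold change -1.19 ± 0.0512 SE, edgeR adjusted p = 2.24e-13). The vessel-stabilising ligand Angpt1 measured 156, 157, 169.7 and 184 CPM in the col1 libraries against 97.1, 102, 105 and 83.5 with ACLP (log2 fold change -0.78 ± 0.0665 SE, edgeR adjusted p = 8.89e-09). Fgf10, Gdnf and Hgf fell at low levels (-2.78, -1.42 and -1.31), and with Gfra1 both the ligand and the receptor of GDNF were lower. Egfr fell by 0.55 and Fgfr1 by 0.14. The collagen receptor kinases Ddr1 and Ddr2 fell by 0.15 and 0.25, and neither Ddr1 nor Gdnf passed in most fits with a library left out. Pdgfb (27.7 to 50.8 CPM, 0.87), Erbb3 (0.81), Fgfr2 (0.74), Met (0.67) and Vegfa (54.5 to 78.5 CPM, 0.52) rose. PDGF signalling thus held opposite changes, in that Pdgfra fell, Pdgfrb fell by 0.15 (edgeR adjusted p = 0.0202) and the ligand Pdgfb rose.

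Redox genes under NRF2 showed no common direction, with 8 of 35 higher and 11 lower (median 0.01, or -0.04 with library sizes alone). Nqo1, the usual reporter, measured 86.1, 90.8, 81.00 and 76.9 CPM in the col1 libraries against 155, 154, 139 and 145 with ACLP (log2 fold change 0.82 ± 0.0579 SE, edgeR adjusted p = 4.59e-10), and the iron exporter Slc40a1 rose at a low level (2.56). By contrast, Gstm1 had 475, 450.1, 438 and 489 CPM in the col1 libraries against 291, 273, 262 and 259 with ACLP (log2 fold change -0.77 ± 0.0484 SE, edgeR adjusted p = 7.67e-11), and Aldh3a1 fell from 34.5 to 15.3 CPM (-1.17). Of the list of DNA methyltransferases, TET enzymes and their partners 9 were tested. No methyltransferase or TET gene passed as higher, the 1 rise being that of the partner Uhrf1. Tet2 fell (35.7 to 27.7 CPM, -0.36, overlapping; 2 fell without col1 replicate 2 or col1-ACLP replicate 2), and Dnmt3b was at 7.68, 7.15, 6.65 and 6.37 CPM in the col1 libraries against 5.37, 6.16, 4.31 and 4.75 with ACLP and did not pass (log2 fold change -0.43 ± 0.167 SE, edgeR adjusted p = 0.0759). Aebp1, the gene of ACLP itself, measured 564, 570.2, 566 and 578 CPM in the col1 libraries against 751, 707, 738 and 837 with ACLP (log2 fold change 0.41 ± 0.0464 SE, edgeR adjusted p = 6.61e-07), without overlap. ACLP was added as a protein, so these are the cells' own transcripts. Of related carboxypeptidases Cpe fell by 0.12 and did not pass when col1 replicate 2 or 4 or col1-ACLP replicate 3 or 4 was left out. Cpd did not pass (0.14). Without col1 replicate 4 or col1-ACLP replicate 2, 2 of these 4 genes rose in place of 1. Ppia, the reference gene of the study's RT-qPCR, was at 642, 738, 613 and 706 CPM in the col1 libraries against 855, 848, 755 and 689 with ACLP and rose slightly with overlapping libraries (log2 fold change 0.22 ± 0.0629 SE, edgeR adjusted p = 0.0145).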

How the data were processed

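RNA of 12 libraries was deposited as a table of read counts per gene, and 8 were used; the 4 columns with SB431542 were left out. Per the labels, libraries were made after poly(A) enrichment of total RNA, and per the study's methods the authors sequenced paired reads of 150 bases and aligned them with HISAT2 to GRCm39, the build that the file coordinates match, although the submitters' processing notes list mm10. The counting tool, its strand setting and its treatment of reads with several matches are not given in the sources used here. The deposited counts were not normalized.

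Groups came from the sample labels. Genes were kept by filterByExpr, scaled by TMM and tested with edgeR's quasi-likelihood test (edgeR 4.0.16, R 4.3.3), with Benjamini-Hochberg adjustment over 15710 genes. CPM are TMM scaled, SD is over 4 libraries, SE belongs to the log2 fold change, 95% intervals are 1.96 SE either side, and 3 counts in a library correspond to 0.0705 to 0.103 CPM. On simulated counts for 15302 genes of this design, 119 of 123 changed genes (96.7%) with a mean of at least 5 CPM were recovered, and 70 of 94 changed by a fold of 2 and 59 of 98 changed by a fold of 1.6 over all levels; the criterion on level was set after a first run. Alternatives were DESeq2 1.42.0, RLE factors, library sizes alone, other filters, all 12 libraries, a replicate block, glmTreat, each library left out and, added after seeing the data, the mitochondrial genome left out.

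Named genes were the 10 with the largest log2 fold change in each direction (mean of at least 5 CPM in either group, groups without overlap), the 5 called with the largest CPM difference in each direction, up to 3 passing members of each list in each direction (mean of at least 1 CPM in either group) with the highest member not passing, the study's own genes and cell type markers. Other members were named after their values were seen, as were 2 of the 43 lists (mitochondrially encoded and epidermal genes). The members and lists were chosen with earlier results of these data known. Genes that the study names were chosen by it on these samples and are not independent evidence. Some results are not reported here.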

Additional observations from a re-analysis of the deposited data

Results flagged for a closer look

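Within a group of 4 libraries, 1 library stood apart from the other 3 by Dixon's test in 31 of 608 groups of values, which cover the named genes and the principal components. Chance alone gives about 1 in 20. Of these, 11 fell on col1-ACLP replicate 4 and 7 on col1 replicate 2. In col1 replicate 1 this held for Efemp1 (1.02 CPM against 1.51 to 1.603), Itga7 (11.3 CPM against 9.697 to 9.96) and Spp1 (231 CPM against 284 to 289). In col1 replicate 2 this held for Atf4 (296 CPM against 263 to 266), Ddr2 (653 CPM against 718 to 721), Fhl2 (30.9 CPM against 35.03 to 35.7), Rspo2 (343 CPM against 326 to 328) and Shmt2 (87.4 CPM against 74.9 to 76.7). In col1 replicate 4 this held for Hsp90b1 (595 CPM against 565 to 568), Tns1 (58.2 CPM against 50.9 to 51.5) and Zfp521 (225 CPM against 232 to 232). In col1-ACLP replicate 1 this held for Aldh3a1 (16.8 CPM against 14.7 to 14.9) and Itga11 (3.63 CPM against 1.91 to 2.196). In col1-ACLP replicate 2 this held for Dusp5 (7.35 CPM against 9.22 to 9.46) and Tek (7.35 CPM against 9.28 to 9.56). In col1-ACLP replicate 3 this held for Itga1 (47.03 CPM against 41.8 to 42.2), Ldhb (14.4 CPM against 16.7 to 16.7) and Pparg (19.6 CPM against 16.7 to 16.9). In col1-ACLP replicate 4 this held for Aldh18a1 (141 CPM against 122 to 124), Anxa8 (127 CPM against 96.4 to 101), Col2a1 (3877 CPM against 2871 to 2975), Fosl2 (308 CPM against 265 to 272), Gars (229.7 CPM against 205 to 207), Hsp90b1 (851 CPM against 797 to 804), Hyou1 (265 CPM against 225 to 229), Pkp1 (37.2 CPM against 24.5 to 26.5), Psph (33.7 CPM against 27.4 to 28.1), Slc1a4 (76.4 CPM against 57.7 to 58.9) and Thy1 (20.1 CPM against 23.4 to 24.02). On PC1 the library col1 replicate 2 scored -71.6, against -7.57 to -7.26 for the others of its group. On PC2 the library col1 replicate 2 scored -31.6, against 31.2 to 33.3 for the others of its group.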

How the results depend on the processing

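Of 300 genes named and tested, 262 passed, and 241 of these passed under all 16 alternatives other than glmTreat. None reversed. Of 38 that did not pass, 9 passed under at least 1 alternative (Actg1, Col3a1, Cpd, Dnmt3b, Fos, Itga5, Lif, Tek and Tgfb2). Alternatives that lost the others were, by gene, Masp1 under 11, Ddr1 and Runx2 under 9, Fabp4 and Gdnf under 8, Bcan and Cdkn1a under 7, Cpe, Junb and Ppia under 5, Cd68, Dusp6, Insig1 and Pdgfrb under 4, Rps27a under 3, mt-Nd1 under 2 and Ccn1, Cdc42, Col4a1, Fgfr1 and Itga11 under 1. With a test against the fold threshold itself (glmTreat), 145 genes were called higher and 96 lower in place of 418 and 405. With a library left out, 1316 to 1567 genes passed as higher and 1202 to 1463 as lower, and 370 to 449 and 363 to 412 were called; without col1 replicate 2, 2700 passing and 723 called genes were shared with the full fit. DESeq2 shared 3057 passing genes and the fit on all 12 libraries 2894. Library sizes alone gave 1186 higher and 1986 lower. With the mitochondrial genome left out, 1596 passed as higher and 1476 as lower. Libraries with the same replicate number did not deviate together over all tested genes (r between -0.031 and 0.014). That does not show how the cultures were set up, and the main test used no pairing. The replicate block gave 1523 passing as higher and 1362 as lower, with 412 and 368 called. Counts in low genes limit the precision, and a gene that did not pass is not shown to be unchanged.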

Other observations

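Genes of the mitochondrial genome were examined after their share of the counts had been seen. Of 13 tested, 7 fell and 0 rose (1 rose without col1-ACLP replicate 2; median log2 fold change -0.25), led by mt-Co1, a core subunit of cytochrome oxidase, at 12852, 10935, 11011 and 10069 CPM in the col1 libraries against 9228, 8297, 8816 and 8645 with ACLP (log2 fold change -0.36 ± 0.0507 SE, edgeR adjusted p = 1.48e-05). mt-Nd5, a subunit of complex I, went from 2847 to 2346 CPM (-0.28), with mt-Nd6 on its other strand, and mt-Nd1 and mt-Cytb fell with overlapping libraries. With the list's mean per library, col1 replicate 4 lay among the col1-ACLP libraries.

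Genes of the epidermal envelope and desmosomes were also chosen after their values were seen, and 13 of 26 were tested. Of these 3 rose, 2 fell and 8 did not pass (median log2 fold change -0.04, and -0.31 without col1 replicate 2). Cdsn, which holds cornified cells together, measured 51.5, 57.9, 52.5 and 55.9 CPM in the col1 libraries against 169.9, 139, 141 and 200.2 with ACLP (log2 fold change 1.58 ± 0.087 SE, edgeR adjusted p = 9.91e-12), and the plakophilin Pkp1 rose from 13.8 to 28.6 CPM (1.05). The envelope precursor Sprr2k fell with Sprr1a, from 8.400 to 3.18 CPM (-1.399). Of the 7 epithelial markers Epcam was at 0 in all 8 libraries, 2 were tested, and their sum was 3.19 to 4.36 CPM without ACLP and 2.76 to 4.97 CPM with it.

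Of 962 transcription factors tested, 14 were called higher (1.46%) and 25 lower (2.60%), against 2.66% and 2.58% of all tested genes. By family, the basic helix-loop-helix factors held 4 called higher and 0 lower of 45, the basic leucine zippers 1 higher and 4 lower of 42 and the C2H2 zinc fingers 2 higher and 9 lower of 463. The other 10 of the 13 families with at least 10 tested members each held at most 1 called higher and 2 lower. Of 1617 long noncoding RNAs tested, 57 were called (3.53%), against 732 of 12439 protein coding genes (5.88%). Those with high levels, picked after seeing their values, included Airn and AI506816. Airn lies across Igf2r on the other strand, so that reads of any overlapping exons cannot be told apart. Airn was at 58.4 ± 8.01 CPM for col1 against 31.7 ± 3.49 with ACLP (SD, n = 4) (log2 fold change -0.88 ± 0.0936 SE, edgeR adjusted p = 2.87e-07). AI506816 was at 86.96 ± 3.73 CPM for col1 against 135 ± 5.804 with ACLP (SD, n = 4) (log2 fold change 0.63 ± 0.0525 SE, edgeR adjusted p = 5.89e-09).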
